A study of Mus musculus with 66 samples.

Results

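H3K27ac, the acetylation of lysine 27 on histone H3, was compared between mouse small intestinal organoids grown in EN and in ENR medium. The comparison was set by the sample labels: 3 EN libraries (EN2, EN3 and EN4) and 3 ENR libraries (ENR1, ENR2 and ENR4), 6 of the 66 samples of the series and 6 of the 8 H3K27ac samples labelled EN or ENR. The other two, EN1 and ENR3, were not analysed here. All cultures held Noggin conditioned medium at 10% and EGF at 50 ng/mL, and all organoids were heterozygous for Lgr5 GFPDTR, a reporter allele at the stem cell gene Lgr5. ENR, the conventional medium, also held R-Spondin-1 conditioned medium at 5%, and EN was ENR without R-Spondin-1. Another culture, CV, was ENR with 3 µM CHIR99021 and 1 mM valproic acid, and its 3 libraries (CV3, CV4 and CV5) are given beside the others. By the paper's methods CV was also grown for longer than EN. In CV a direct effect of these compounds on H3K27ac cannot be told apart from a change of cells. The libraries were made by ChIPmentation, in which chromatin bound by an antibody is cut and tagged on the beads by Tn5 transposase. Nothing in the labels says whether the libraries of a culture came from separate passages or animals, so the p-values measure the spread between these libraries, which may be technical.

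H3K27ac marks active promoters and active enhancers, and it is laid down largely by the acetyltransferases p300 and CBP. R-Spondin binds Lgr receptors and keeps Wnt receptors at the cell surface, so its removal lowers Wnt signalling. In the intestine Wnt signalling maintains the stem and dividing cells of the crypt, whereas absorptive enterocytes line the villus. Organoids hold a mixture of these cells, so a lower score can come from fewer cells of a type or from less mark per cell, and these cannot be told apart here.

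The deposited table lists 94469 regions, the union of peaks from all assays, with a normalized score per library. Scores are the authors' normalized read counts rounded to whole numbers, and a difference below is always the EN minus ENR difference of log2(score + 1). The 39633 regions with a mean score of at least 5 over the 6 libraries were tested with limma, and a region was called at a Benjamini-Hochberg adjusted p under 0.05. The summed score of a library ranged from 1372095 to 1506573 for ENR and from 1622103 to 1760511 for EN, without overlap. Libraries of a culture correlated with r of 0.851 to 0.889 for EN and 0.838 to 0.87 for ENR on the log2 scale, across regions. EN3 also correlated with ENR1 at 0.858. The share of regions with a score of 0 differed within cultures, from 1.46% in EN2 to 18% in EN3, and from 8.28% in ENR4 to 17.7% in ENR2. Among 7 epithelial marker promoters the summed score was 1191 to 1399 in ENR and 1313 to 1605 in EN. Of 12 markers of non-epithelial cells, 5 had a region within 500 bp of a start site, and these summed to 20 to 31 in ENR and 15 to 40 in EN. Col1a1 of fibroblasts scored 3, 6 and 7 in ENR and 5, 2 and 21 in EN, and Des of muscle scored at most 2 in the ENR and EN libraries and 6, 4 and 5 in CV.

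Sequences of 4 regions are shown because they are among those that moved most and have their centre outside annotated exons. Each is 300 bases of the mm9 genome around the centre of a region, read on the plus strand. The first, at chr7:152127361-152127660, is centred at -1736 bp from the start site of Ccnd1, which encodes cyclin D1, a regulator of entry into the cell cycle and a known Wnt target. The second, at chr2:156666208-156666507, lies in a region that overlaps a start site of Tgif2, a homeobox repressor. The last pair was chosen after the values were seen, as the largest rises whose window holds the HNF4 motif CAAAGTCCA on either strand. They are centred at -11583 bp from the start site of Slc5a1, the brush border glucose transporter, at chr5:33435136-33435435, and at -787 bp from that of Clec2h, a C-type lectin, at chr6:128611468-128611767. Capitals mark matches to the HNF4 motif and to the TCF/LEF motif ATCAAAG, or to their reverse complements.
Ccnd1: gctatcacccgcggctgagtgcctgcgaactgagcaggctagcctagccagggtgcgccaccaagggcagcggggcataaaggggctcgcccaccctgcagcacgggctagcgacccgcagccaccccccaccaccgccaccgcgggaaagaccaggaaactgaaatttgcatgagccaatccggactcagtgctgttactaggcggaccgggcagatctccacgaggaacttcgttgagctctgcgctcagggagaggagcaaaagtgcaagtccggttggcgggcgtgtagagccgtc
Tgif2: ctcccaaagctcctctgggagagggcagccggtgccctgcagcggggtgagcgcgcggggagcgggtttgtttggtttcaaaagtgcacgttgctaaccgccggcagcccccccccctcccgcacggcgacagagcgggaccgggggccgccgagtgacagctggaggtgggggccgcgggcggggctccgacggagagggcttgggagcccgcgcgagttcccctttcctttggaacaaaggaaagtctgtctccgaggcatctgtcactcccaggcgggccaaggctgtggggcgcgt
Slc5a1: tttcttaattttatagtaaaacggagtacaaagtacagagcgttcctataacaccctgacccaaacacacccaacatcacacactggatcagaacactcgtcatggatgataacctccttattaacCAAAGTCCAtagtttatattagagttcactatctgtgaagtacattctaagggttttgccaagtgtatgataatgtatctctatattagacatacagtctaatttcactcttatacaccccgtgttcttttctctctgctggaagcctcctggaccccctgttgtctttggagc
Clec2h: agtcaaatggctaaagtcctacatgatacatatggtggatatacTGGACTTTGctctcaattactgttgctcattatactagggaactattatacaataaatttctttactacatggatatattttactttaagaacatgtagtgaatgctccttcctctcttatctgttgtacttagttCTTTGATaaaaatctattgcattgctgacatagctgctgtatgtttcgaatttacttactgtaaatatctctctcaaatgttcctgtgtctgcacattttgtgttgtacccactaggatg

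The Ccnd1 region scored 31, 36 and 31 in ENR and 1, 9 and 1 in EN. The Tgif2 region scored 99, 150 and 94 in ENR and 10, 12 and 7 in EN. Both were picked among calls whose 3 EN and 3 ENR scores did not overlap, so that separation was set by the selection. It was seen in 31.3% of all tested regions. The Slc5a1 region scored 1, 2 and 6 in ENR and 32, 18 and 36 in EN, a difference of 3.04 ± 0.55 (SE, limma adjusted p = 0.00135), and held 39 Hnf4g reads in the single EN library of that factor against 2 in the ENR library. The Clec2h region scored 18, 7 and 8 in ENR and 134, 45 and 88 in EN, a difference of 2.89 ± 0.41 (limma adjusted p = 0.000202), with 95 Hnf4g reads in EN and 9 in ENR. The Hnf4g libraries held 1816497 reads in EN and 352600 in ENR over all regions, so these raw reads are not on 1 scale.

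Of the 39633 regions, 5460 (13.8%) were called, 4437 of them higher in EN (11.2%) and 1023 lower (2.58%). The median difference was 1.53 among the higher regions and -1.40 among the lower ones. Over all regions tested the median difference was not 0 but 0.33, a 1.26-fold shift towards EN. The direction of the calls depended on this shift. When each library was centred on its median, 1746 regions (4.41%) were higher and 2255 (5.69%) lower, and with quantile normalization 1987 were higher and 2007 lower. All 1023 lower regions and 1746 of the 4437 higher ones were called in the same direction after median centring. Which scaling is right was not tested, so rises below are given with the result after centring where it was lost. The count of calls also rested on single libraries. It was 1721 without EN4, 2439 without EN2 and 2790 without ENR4, and between 3725 and 5076 without EN3, ENR1 or ENR2. In all 6 fits that left out a library, 1077 of the higher and 287 of the lower regions were called.

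**Figure D1:**
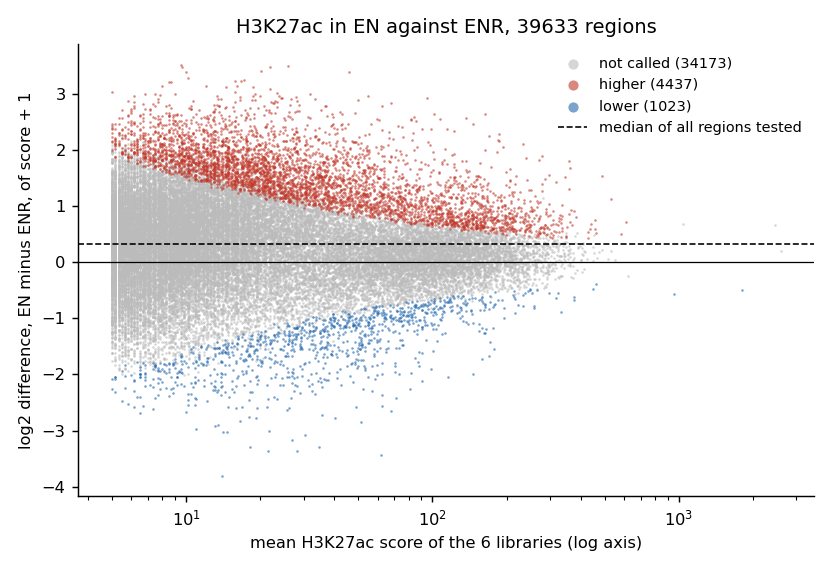
Each point is 1 of 39633 regions, with its mean H3K27ac score over 6 libraries on a log axis and its EN minus ENR difference of log2(score + 1). Red marks the 4437 regions called higher, blue the 1023 called lower, and the dashed line the median of 0.33 over all points.

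Regions were ranked by difference among calls with a mean score of at least 20 in the higher culture whose 3 EN and 3 ENR scores did not overlap. Such a separation was seen in 31.3% of all tested regions. The 10 largest rises so ranked had differences between 3.13 and 3.49. Intronic regions of Scp2, which encodes the peroxisomal sterol carrier protein, and of Slc15a1, the brush border peptide transporter, were among them. The Scp2 region at chr4:107740688-107740906 scored 4, 0 and 6 in ENR and 25, 25 and 43 in EN. The Slc15a1 region at chr14:121892973-121893332 scored 1, 3 and 1 in ENR and 29, 13 and 25 in EN. A region centred at -41703 bp from the start site of Ugt2a3, a glucuronosyltransferase, scored 5, 16 and 3 in ENR and 134, 54 and 63 in EN. Among protein-coding start sites, others lay nearest to those of Slc6a3, Fam160b1, Adam2, Slc4a4 and Ppp2r5c. The Slc4a4 region was centred at -51601 bp, with another annotated start site 3971 bp away. None of the 10 lay within 500 bp of a start site, and all 10 stayed called after centring and in every fit without a library. In the 3 CV libraries the Slc15a1 region scored 5, 1 and 6 and the Scp2 region 4, 5 and 8.

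The 10 largest falls so ranked had differences between -3.80 and -3.02, and all stayed called in the same tests. The largest was over the start site of Daf2, a complement regulator, at chr1:132319263-132319762, with scores of 30, 25 and 26 in ENR and of 1 in each EN library (difference -3.80 ± 0.53, limma adjusted p = 0.000168). The Tgif2 region had a difference of -3.43 ± 0.33 (limma adjusted p = 3.34e-06). Of the 10 regions, 3 belonged to Ccnd1 and 1 to an intron of Axin2, a feedback inhibitor of Wnt signalling. The Axin2 region, at chr11:108783166-108783529, scored 58, 47 and 42 in ENR and 5, 3 and 6 in EN. Another region had Gmnn, the inhibitor of replication licensing, as its nearest protein-coding start site, at 51832 bp. It scored 57, 37 and 62 in ENR and 3, 7 and 3 in EN. An annotated start site of another kind lay 30854 bp from it, and a link to Gmnn was not tested. The others lay in introns, with 1700040L02Rik and Rad51l1 as the nearest protein-coding genes, and in a non-coding exon. That last region overlapped a start site of 4930520O04Rik, and its nearest protein-coding start site was that of Crtap. In CV the Tgif2 region scored 104, 66 and 125, the Axin2 intron 84, 63 and 49 and the Daf2 region 16, 20 and 17.

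Promoters were then read by gene list. For each gene the region within 500 bp of an annotated start site with the highest mean score was taken. Among all 11047 such promoter regions tested, 10.1% were higher, 5.34% were lower and the median difference was 0.08.

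Of 26 Wnt targets and stem cell markers, 24 had a tested promoter region, and 13 fell, none rose and 11 were not called, with a median difference of -0.99. Lef1 and Tnfrsf19 had a mean score under 5. Lgr5, the R-Spondin receptor of crypt stem cells, scored 57, 61 and 69 in ENR and 10, 7 and 9 in EN at chr10:115023230-115024435, a difference of -2.72 ± 0.35 (SE, limma adjusted p = 7.68e-05). The Axin2 promoter scored 164, 342 and 276 in ENR and 68, 84 and 81 in EN. Ascl2, a transcription factor of stem cells, scored 50, 45 and 32 in ENR and 16, 7 and 7 in EN. The adhesion receptor Cd44 scored 68, 66 and 61 in ENR and 22, 17 and 11 in EN, and Msi1, an RNA-binding protein, scored 56, 178 and 129 in ENR and 35, 16 and 13 in EN. In each of these the cultures did not overlap, as in 16 of the 24 tested promoter regions of the list. Scores were also apart in 97.3% of all lower calls and in 31.3% of all tested regions. Ccnd1, Ephb3, Smoc2, Slc12a2, Prom1, Cdca7, Olfm4 and Myc completed the 13 falls. Myc, the growth regulator downstream of Wnt, had the smallest of them, with scores of 134, 109 and 123 in ENR and of 61, 87 and 59 in EN (difference -0.83 ± 0.22, limma adjusted p = 0.0192). The calls of Myc and of Olfm4, a secreted stem cell marker, held in 2 of the 6 fits without a library, and the list had 8 falls without EN4 and 17 after median centring. Sox9, a transcription factor of the crypt base, was not called, with 47, 45 and 39 in ENR and 37, 35 and 17 in EN (limma adjusted p = 0.227). The median log2 score of the list, relative to that of all promoter regions in the same library, was -0.16 to 0.03 in ENR, -1.90 to -1.19 in EN and 0.47 to 0.62 in CV.

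Proliferation genes followed the same direction. Of 25 genes 24 were tested, of which 13 fell and none rose, with a median difference of -1.09, and all 24 differences were negative. After median centring 20 fell. Among the subunits of the MCM replicative helicase, Mcm6 scored 91, 82 and 87 in ENR and 25, 13 and 16 in EN, a difference of -2.25 ± 0.31 (limma adjusted p = 0.000136). Mcm2, Mcm4 and Mcm5 fell too, and Mcm7 was at -0.57 without a call. The mitotic kinase Cdk1 scored 106, 80 and 96 in ENR and 29, 13 and 16 in EN. Ccnb1, its cyclin partner, scored 57, 40 and 57 in ENR and 18, 10 and 20 in EN. Top2a, Rrm1, Rrm2, Tyms, E2f1, Hells and Mki67 were also lower. The calls of Mki67, Tyms and Hells held in 2 of the 6 fits without a library. Relative to all promoter regions, the list's median log2 score was 0.05 to 0.17 in ENR, -1.58 to -0.77 in EN and 0.08 to 0.31 in CV.

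**Figure D2:**
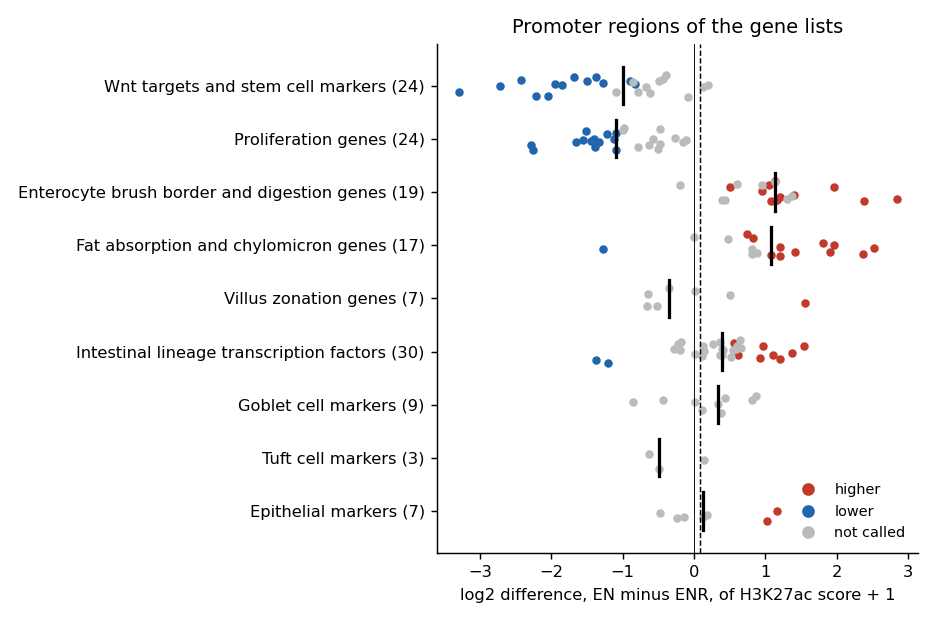
Each point is the promoter region of 1 gene, placed by its EN minus ENR difference of log2(score + 1), for the 9 lists with at least 3 tested genes. Black bars mark list medians, which run from -1.09 for proliferation genes to 1.13 for brush border genes, and the dashed line marks the median of 0.08 over 11047 promoter regions.

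Of 26 genes of the enterocyte brush border and of digestion, 19 were tested, of which 11 rose and none fell, with a median difference of 1.13. No region lay within 500 bp of a start site for 5 genes, and Krt20 and Slc15a1 had promoter means under 5. Sis, which encodes the disaccharidase sucrase-isomaltase, scored 16, 15 and 15 in ENR and 130, 79 and 153 in EN at chr3:72770494-72770896, a rise of 2.84 ± 0.30 (limma adjusted p = 1.18e-05). The metalloprotease subunit gene Mep1b scored 37, 19 and 32 in ENR and 181, 136 and 140 in EN. The amino acid transporter gene Slc6a19 scored 10, 18 and 13 in ENR and 62, 62 and 42 in EN. Vil1, an actin bundler of microvilli, scored 143, 79 and 122 in ENR and 243, 224 and 292 in EN, a rise of 1.17 ± 0.21 (limma adjusted p = 0.00116). Slc5a1, Cdhr2 and Myo1a were the other rises that held after centring. Espn, Ush1c, Ptk6 and Amn were not called after centring, which leaves 7 rises, and Amn was called in 0 and Espn and Ptk6 in 1 of the 6 fits without a library. Alpi, intestinal alkaline phosphatase, scored 17, 11 and 9 in ENR and 8, 27 and 29 in EN and was not called (limma adjusted p = 0.43). Anpep, aminopeptidase N, scored 8, 4 and 4 in ENR and 11, 17 and 17 in EN, without overlap but also without a call (limma adjusted p = 0.0730). The list had 7 rises without EN2 and 7 without EN4.

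Genes of fat absorption and of chylomicrons, the particles that carry dietary fat, gave 11 rises and 1 fall among 17 tested of 19, with a median difference of 1.08. Abcg5 and Abcg8 share 1 region, which was not called and is counted for both. The apolipoprotein gene Apoa4 scored 32, 18 and 22 in ENR and 149, 123 and 148 in EN, a rise of 2.53 ± 0.27 (limma adjusted p = 1.18e-05). The fatty acid binding protein genes Fabp2 and Fabp1 rose as well. Fabp2 scored 45, 29 and 35 in ENR and 247, 163 and 169 in EN, and Fabp1 scored 100, 59 and 66 in ENR and 318, 243 and 308 in EN. Creb3l3, a transcription factor of lipid metabolism, scored 137, 94 and 123 in ENR and 453, 375 and 490 in EN (difference 1.90 ± 0.17, limma adjusted p = 3.34e-06). Apob, Apoc3, Mogat2 and Dgat1 also rose. Dgat2, Slc27a4 and Acsl5 rose on the scores as deposited and lost the call after centring. The fall was at Scarb1, the scavenger receptor for lipoproteins, with 28, 24 and 33 in ENR and 10, 12 and 11 in EN, and it was called in 1 of the 6 fits without a library. The list had 7 rises without EN2 and 7 without EN4. Mttp, which loads lipid onto apolipoprotein B, was not called at its promoter. The list's median log2 score relative to all promoter regions was at or under -0.67 in the 3 ENR libraries, 0.57 to 1.02 in EN and -0.34 to 0.07 in CV.

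**Figure D3:**
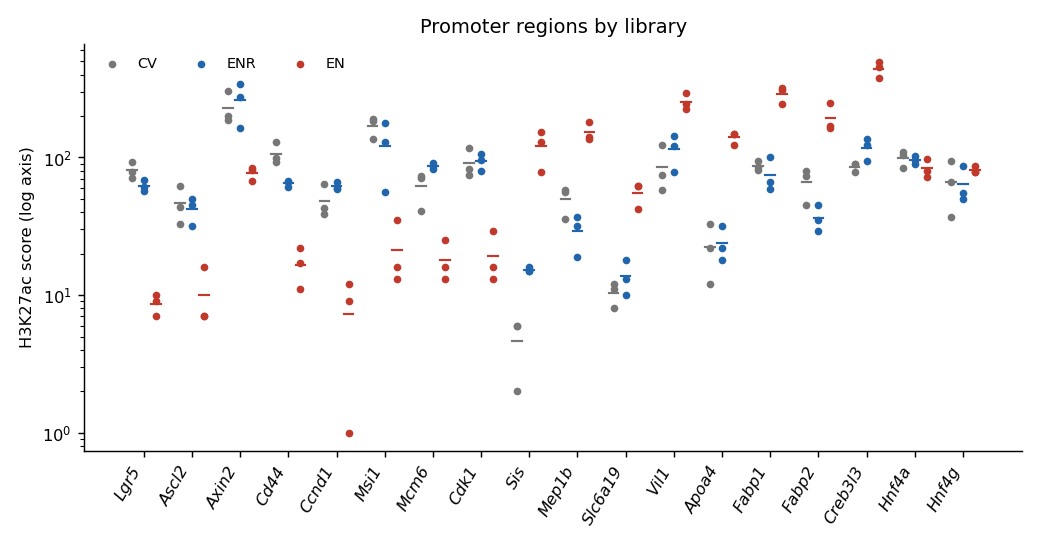
Points are the H3K27ac scores of single libraries on a log axis, 3 per culture, and bars are means, for the promoter regions of 18 genes. From Lgr5 to Cdk1 the EN scores lie below all ENR scores, from Sis to Creb3l3 they lie above, and at Hnf4a and Hnf4g the cultures overlap.

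Transcription factors of the intestinal lineage were split. All 30 were tested, of which 8 rose, 2 fell and 20 were not called, with a median of 0.40 beside 0.08 over all promoter regions. The list's median log2 score relative to all promoter regions was 0.31 to 0.70 in ENR and 0.49 to 0.85 in EN. These ranges overlap, and in CV it was 0.35 to 0.76. Nr1h4, the bile acid receptor FXR, scored 115, 56 and 66 in ENR and 228, 185 and 255 in EN (difference 1.54 ± 0.24, limma adjusted p = 0.000383). Maf scored 57, 60 and 79 in ENR and 168, 148 and 197 in EN. Isx, Vdr and Ppara also held after centring, while Gata6 and Esrra did not. The falls were at Foxa2, with 94, 78 and 53 in ENR and 33, 27 and 23 in EN, and at Sox4, with 223, 219 and 238 in ENR and 150, 66 and 96 in EN. The list had 4 rises without EN4 and 5 without ENR4, with 2 falls in both. The promoter of Hnf4g scored 86, 50 and 55 in ENR and 78, 87 and 79 in EN (limma adjusted p = 0.318), and that of its paralogue Hnf4a 96, 90 and 103 in ENR and 80, 98 and 72 in EN (limma adjusted p = 0.541), so neither was called.

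The remaining lists gave few calls. Among 10 genes with a graded pattern along the villus, 7 were tested, and Reg3g, an antimicrobial lectin, was the only call, a rise that was lost after centring and held in 2 of the 6 fits without a library. After centring Klf4, a transcription factor of differentiated epithelial cells, was called lower. Of 14 goblet cell markers 9 were tested and none was called, while Agr2 was called lower after centring (limma adjusted p = 0.0497). The goblet and secretory regulator Atoh1 scored 13, 18 and 30 in ENR and 12, 19 and 32 in EN, and its difference of 0.02 changed sign after centring. Of 9 Paneth cell markers none reached a mean of 5. The tuft cell list had 3 tested genes of 14 and the enteroendocrine list 1 of 20, all without a call. No region lay within 500 bp of a start site of Muc2 or Reg4, and Defa6 had no start site in the annotation used. Among epithelial markers Vil1 and Krt19 rose, Krt19 not after centring or without EN4, and Epcam, Cdh1, Krt8, Krt18 and Cldn7 were not called. After centring Cdh1 and Krt18 were called lower (limma adjusted p = 0.0484 and 0.0232), which gives 1 rise and 2 falls.

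Called regions were then counted by gene. Each was linked to the nearest protein-coding start site within 50000 bp. The 3961 higher regions so linked fell to 2447 genes, of which 1607 had 1 and 372 had 3 or more. The 885 lower regions fell to 792 genes, of which 723 had 1 and 16 had 3 or more. The most rises were at Eps8l3, an actin regulator gene, and at Osbpl6, an oxysterol binding protein gene, with 10 each of 15 and 16 tested regions. Sums in this paragraph cover only called regions, at genes chosen for their number of calls, so a gap between cultures was set by the selection. Summed over the 10 Eps8l3 regions the scores were 338, 311 and 290 in ENR and 930, 596 and 853 in EN. Over the 10 Osbpl6 regions they were 174, 114 and 171 in ENR and 408, 427 and 445 in EN. Trim31 and Isx, an intestinal homeobox gene, had 9 each of 11 and 18 tested regions. Adh1, alcohol dehydrogenase, had 8 of 10, which summed to 135, 100 and 107 in ENR and to 582, 428 and 624 in EN. After centring 4 of the Eps8l3 rises, 5 at Osbpl6, 5 at Trim31, 3 at Isx and 7 at Adh1 were still called. In all 6 fits without a library 3, 2, 3, 1 and 4 of them were called, in the same order. Among the falls, Ccnd1 had 5 of 9 regions lower, between chr7:152123721 and 152127704, which summed to 191, 223 and 179 in ENR and to 19, 40 and 28 in EN. Cdk6, the kinase partner of cyclin D1, had 5 of 5, with sums of 274, 229 and 237 in ENR and of 109, 83 and 93 in EN. Lfng, a modifier of Notch, Hmga1 and Sox4 had 4 each. The falls called in all 6 fits without a library were 3 at Ccnd1, 2 at Cdk6, 3 at Lfng, 1 at Hmga1 and 3 at Sox4. No region near these 10 genes was called in the other direction.

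Rises and falls differed in where they lay. Of the lower regions 63.4% (95% Wilson interval 60.4 to 66.3%, 649 of 1023) were within 500 bp of a start site, against 30.3% (29.0 to 31.7%, 1346 of 4437) of the higher ones and 33.8% of all tested regions. These intervals are of counting error and leave out the spread between libraries. With a library left out, the shares were 65.6 to 74.0% of lower and 29.6 to 40.2% of higher regions. Of the regions within 500 bp 10% were higher and 4.84% lower, and of those farther away 11.8% were higher and 1.43% lower. The median difference was 0.08 over start sites, 0.36 up to 500 bp away, 0.59 from there up to 5000 bp, 0.48 up to 50000 bp and 0.38 beyond. Regions were also split into 6 classes of mean score, from 5 to 10 up to 160 or more. The median difference was -0.02 to 0.18 within 500 bp and 0.41 to 0.66 farther away, and in all 6 classes the median and the share of higher regions were larger farther away. That share ran from 2.01 against 4.17% in the lowest class to 21.5 against 36% in the highest. The share of lower regions was larger within 500 bp in 5 classes, and at 160 or more it was 2.77% within 500 bp and 5.26% farther away. A share within each library does not depend on a linear scaling between libraries. Regions farther than 500 bp held 34.4%, 30.4% and 33.8% of the summed score of tested regions in EN2, EN3 and EN4, and 27.1%, 27.7% and 28.8% in ENR1, ENR2 and ENR4. The means were 32.9% ± 2.16 and 27.9% ± 0.862 (SD, n = 3 each, exact two-sided permutation p = 0.1, the smallest that 3 against 3 can give). CV3, CV4 and CV5 had 38.2%, 37.4% and 33.1%. The share of regions at 0 also differed between libraries, as given above, and its part in these shares was not tested.

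**Figure D4:**
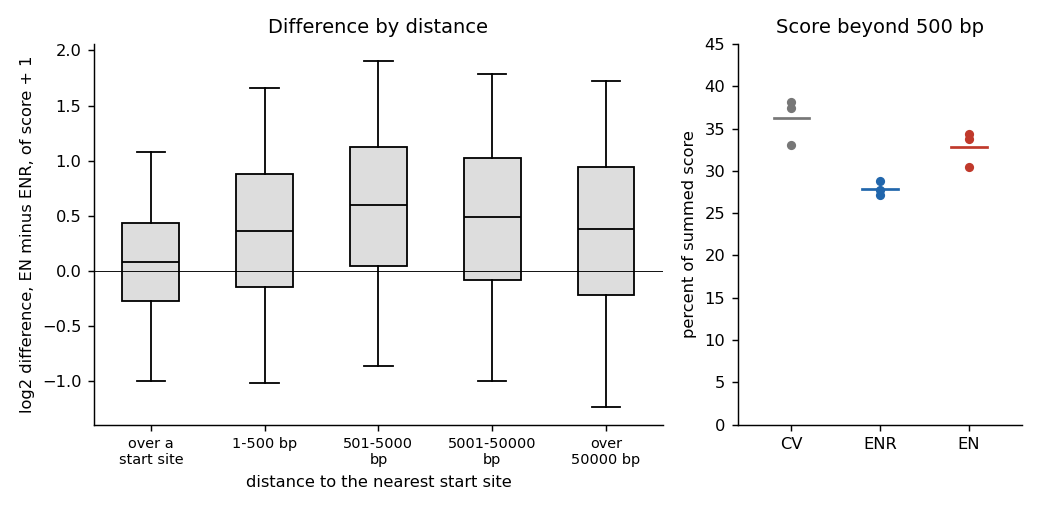
Left, boxes show the median and quartiles, and whiskers the 5th and 95th percentiles, of the EN minus ENR difference in 5 classes of distance to the nearest start site, where the median rises from 0.08 over start sites to 0.59 in the class that ends at 5000 bp. Right, points are the percent of each library's summed score in regions farther than 500 bp and bars are means, with all 3 EN libraries above all 3 ENR libraries.

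Accessibility, measured by ATAC-seq in 4 libraries per culture, was called different in 34.7% of 51489 regions tested the same way, higher in 18.6% and lower in 16.1%. Of the higher H3K27ac regions, 4009 were tested for ATAC, and 1661 of them were higher and 172 lower. Of the lower H3K27ac regions, 972 were tested, and 450 were lower and 49 higher. Thus 2332 regions were called in both assays, which is 46.8% of the H3K27ac calls and 19.3% of the ATAC calls among regions tested in both, and 90.5% of the 2332 had the same direction. The median ATAC difference was -1.16 at lower regions farther than 500 bp from a start site and -0.24 at lower regions within 500 bp, and it was 0.56 and 0.15 at the higher ones. Across 32381 regions, which share cultures but not libraries, the H3K27ac and ATAC differences had a Pearson r of 0.502. At the Lgr5 promoter the ATAC score was 47.5 ± 11 in ENR and 16.8 ± 7.68 in EN (SD, n = 4 each), while the promoters of Cdk1 and Vil1, called for H3K27ac, had ATAC scores of 134 ± 3.5 and 154 ± 24.4 in ENR and of 129 ± 26 and 150 ± 22 in EN, without a call.

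**Figure D5:**
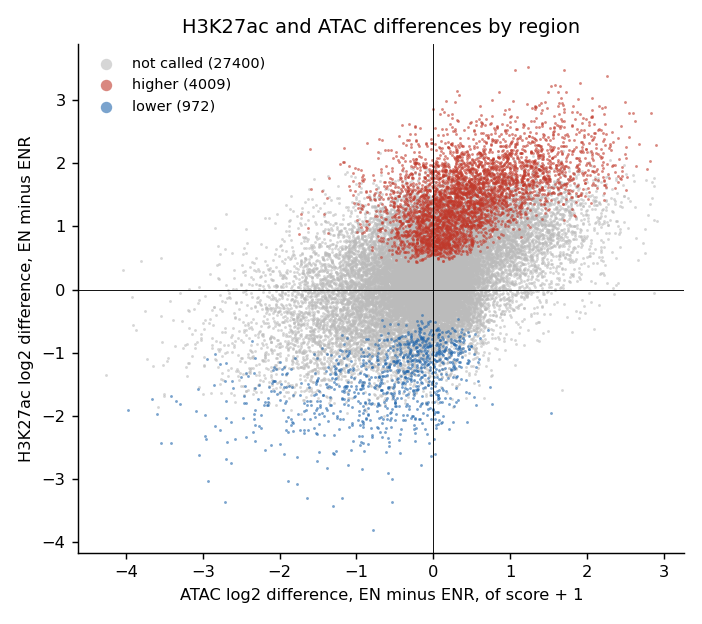
Each point is 1 of 32381 regions tested in both assays, placed by its ATAC and its H3K27ac difference between EN and ENR on the log2(score + 1) scale and coloured by its H3K27ac call. Most of the 4009 higher regions lie to the right of 0 and most of the 972 lower regions to the left.

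H3K4me3, a promoter mark given here as values with no test, had a median difference of 0.86 at higher, -0.28 at lower and 0.33 at uncalled regions. H3K27me3, the Polycomb mark, was 0.53 at higher and 0.67 at lower regions, against 0.53 over all tested regions. The EN library of Hnf4g, a nuclear receptor, had a median of 37 reads in higher, 31 in lower and 15 in uncalled regions, and the ENR library 5, 6 and 3. With 1 library per culture and 352600 reads in ENR against 1816497 in EN, these raw reads are not on 1 scale and have no replicate check. Scaled to the reads of each library in all regions, the mean was 27.4 RPM in ENR and 37 RPM in EN at higher regions and 31.1 RPM in ENR and 27.5 RPM in EN at lower regions.

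RNA from 4 libraries per culture was compared for 7605 genes with both a tested promoter region and a tested transcript. RNA differed for 79.2% of 9288 transcripts (edgeR's quasi-likelihood test, adjusted p under 0.05), with 38.7% higher and 40.5% lower in EN. The RNA data held 9423 transcripts with any count, so these are shares of that set and not of the transcriptome. When joining RNA with protein, the paper limited its transcripts to those quantified as protein. Of 872 genes with a higher promoter region 776 (89.0%) had higher and 38 lower RNA in EN, and of 391 with a lower one 361 (92.3%) had lower and 10 higher RNA. Among 6342 genes without a call at the promoter, 35.6% had higher and 45.2% lower RNA. Lgr5 RNA was 129 ± 4.88 CPM in ENR and 1.81 ± 0.778 CPM in EN (SD, n = 4 each), and Cdk1 RNA 135 ± 7.34 and 3.57 ± 1.16 CPM. Sis RNA was 4475 ± 158 and 27938 ± 1065 CPM, and Creb3l3 RNA 147 ± 8.22 and 877 ± 33 CPM. The fall at Scarb1 went with 14.9 ± 1.02 CPM in ENR and 3.69 ± 0.857 CPM in EN. For some genes the calls of RNA and promoter mark differed. Hnf4g RNA was 369 ± 9.2 CPM in ENR and 1406 ± 105 CPM in EN (log2 fold change 1.93, edgeR adjusted p = 1.62e-14) without a call at its promoter region. Sox9 RNA was 27.1 ± 3.12 and 3.98 ± 0.851 CPM (edgeR adjusted p = 5.69e-11), and its ATAC score 57.2 ± 7.72 and 16.2 ± 4.11, also without an H3K27ac call.

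Base composition separated the sets. The median GC content of the 300 bases around the centre was 60.7% in lower, 49.3% in higher and 51.3% in uncalled regions, and lower regions were wider, with a median of 1150 bp against 483 bp. Farther than 500 bp from a start site the medians were 52.0% in lower and 47.3% in higher regions. The HNF4 motif was in 4.33% (3.77 to 4.97%) of higher regions and 2.49% of all tested regions, and in 0 of 1023 lower regions, which allows a share of up to 0.293%. Among regions farther than 500 bp it was in 5.47% (4.72 to 6.33%) of higher, 3.39% of all and 0 of 374 lower regions, which allows up to 0.802%. The TCF/LEF motif, which shares the letters CAAAG with it, was in 3.48% (2.04 to 5.86%) of the 374 lower distal regions and 6.29% of all distal regions. The SP motif GGGGCGGGG was in 7.49% (5.23 to 10.6%) of lower, 1.65% (1.26 to 2.16%) of higher and 2.91% of all distal regions, and within 500 bp of a start site it was in 10% of lower and 10.7% of all regions. Some other motifs, but not all, were also in fewer of the lower distal regions than of all distal regions. The AP-1 motif TGANTCA was in 11.8% of the lower distal regions and in 19.2% of all distal regions. For the motif TTTATNG of the intestinal CDX factors the shares were 13.1% and 18.2%. The motif AGATAAG, which GATA factors bind, was in 5.61% and 8.98% of them. The FOXA motif TGTTTAC went the other way, in 6.68% (4.57 to 9.68%) of lower distal and 6.31% of all distal regions. For the KLF motif GGGTGTGG the shares were 5.35% (3.49 to 8.12%) and 5.89%. Both strands were read, intervals are Wilson intervals of counting error, and the part of base composition in these shares was not tested.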

How the data were processed

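H3K27ac ChIPmentation libraries of EN, ENR and CV organoids were grouped by the sample labels, with ATAC-seq, H3K4me3, H3K27me3, Hnf4g and RNA of the same cultures as other readouts. The authors used BWA (mm9), Picard for duplicates and MACS 2.0 for peaks. For chromatin the authors deposited a normalized score per union region, rounded to whole numbers; the normalization is not given in the sources used here. Hnf4g values are raw read counts, as deposited, and RNA values are the expected counts that the authors deposited from kallisto, rounded here. Columns of the authors' copy numbers and TPM were not used here.

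Scores were tested as log2(score + 1), with a pseudocount of 1, by limma 3.58.1 with a mean-variance trend and no block, in regions with a mean of at least 5. ATAC was tested likewise over 8 libraries. RNA was tested with edgeR 4.0.16 (quasi-likelihood, TMM, transcripts detected in 4 or more libraries, CV included) in R 4.3.3, with CPM as the level, and with DESeq2 1.42.0 as an alternative. The transcript with the highest mean stood for a gene. RNA libraries held 5630951 to 8859744 expected counts. Start sites, sequence and motifs came from GENCODE vM1 and the mm9 genome, read with Python 3.11.15, and the 129 regions on unplaced sequences carry no annotation. Both region ends are given as deposited.

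Named regions were the 10 largest rises and falls among calls with separate scores and a mean of at least 20 in the higher culture, called promoter regions of the gene lists, genes the study names, and the 5 genes with most called regions per direction. The region comparison, the members and the lists were chosen with earlier results of these data known. Alternatives changed the pseudocount, transformation, scaling, filter, trend, threshold, block and libraries. Same-numbered EN and ENR libraries had correlated deviations in all 4 ATAC pairs (r = 0.148 to 0.379). Unlike numbers reached r of 0.314 for EN4 with ENR3, and EN2 had 0.247 with ENR1 against 0.148 with ENR2. ATAC numbers 1 and 2 went together, as did 3 and 4, and every r between these sets was negative. Pairing by number thus cannot be told from such a grouping. The ATAC values printed come from the fit without the block. The 2 shared H3K27ac numbers had r of 0.118 and 0.0186, and unlike numbers had -0.145 to 0.181. These cannot settle whether the H3K27ac libraries are paired, and the main fit has no block. The precision of scores is given by the spread of 3 libraries, since read depth is not kept in them. Results for 1 gene and 1 region are not reported here.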

Additional observations from a re-analysis of the deposited data

Results flagged for a closer look

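Of 69 groups of 4 libraries checked, 7 held a library far from the other three by Dixon's ratio of the gap to the range, where chance marks about 1 in 20. No group of 3 H3K27ac libraries could be checked. In EN, Lgr5 RNA was 2.28, 0.642, 2.14 and 2.16 CPM (ratio 0.916), Axin2 RNA 1.07, 1.71, 1.07 and 1.01 CPM (0.909) and Cd44 RNA 5.36, 2.78, 5.17 and 5.04 CPM (0.875), with EN2 standing apart in each. EN2 had the fewest expected counts of the EN RNA libraries, 5630951, and levels this low rest on few counts. The part of counting noise was not tested. Vil1 RNA in EN was 2284, 2290, 2102 and 2265 CPM (0.865), with EN3 lowest. In ENR, Anpep RNA was 89.9, 89.3, 89.9 and 108 CPM (0.970) and Hnf4a RNA 701, 704, 703 and 722 CPM (0.852), with ENR4 highest, and Eps8l3 RNA was 147, 140, 140 and 139 CPM (0.884), with ENR1 highest.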

How the results depend on the processing

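The count of called H3K27ac regions, 5460 with 4437 higher and 1023 lower, moved by over 1.5 times under several alternatives. It was 1154 (957 higher, 197 lower) with no filter, 2207 (1870 and 337) with no trend, 438 (357 and 81) at an adjusted p under 0.001 and 2146 (1658 and 488) in the fit of 9 libraries with CV. Quantile normalization gave 1987 higher and 2007 lower, and median centring 1746 and 2255. Leaving out a library gave 1721 to 5076 called, 1261 to 4411 higher and 407 to 767 lower regions. With the replicate number as a block, limma called 0 regions, 0 higher and 0 lower, with 9979 at an unadjusted p under 0.05, from 2 shared numbers and 1 residual degree of freedom. Whether the numbers pair these libraries cannot be told from 2 shared numbers. The share of higher regions within 500 bp of a start site, 30.3%, was 43.0% within 2000 bp, 42.3% with no filter, 16.8% with no trend, 48.7% at the stricter threshold and 29.6 to 40.2% without a library. That of lower regions, 63.4%, was 67.7%, 72.1%, 49.9% and 79.0% in the same order and 65.6 to 74.0% without a library. With quantile normalization and median centring, chosen for these shares after seeing the data, they were 35.2% and 27.4% of higher and 59.7% and 67.0% of lower regions. In each setting the share was larger among the lower regions. Of 94 named regions 88 were called, and the others were named whatever the result. All 88 lost the call with the block, 35 with no trend, 34 with no filter, 12 with median centring and up to 24 without a library. With no trend the calls in the lists went from 13 to 8 for Wnt targets, 13 to 5 for proliferation, 11 to 3 for the brush border and 10 to 1 for lineage factors. With no filter they were 7, 4, 7 and 4, and 7 against 12 for fat absorption, and the fit of 9 libraries gave 7 for the brush border and 8 for fat absorption. Only Atoh1 changed sign, from 0.02 to -0.36 with quantile normalization, -0.31 with median centring, -0.23 with the block and between -0.33 and 0.35 with each library left out, below 0 without EN4, ENR1 or ENR2. The causes were not tested. ATAC calls were between 14429 and 20206 against 17876, and RNA calls between 7190 and 7356 against 7357, except 7117 with DESeq2. The block, at 20206 ATAC and 7337 RNA calls, moved neither by over 1.5 times.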
